A study of Homo sapiens with 18 samples.

Results

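Kidney development is directed by a small set of regulatory genes, and 8 of them are described here in HEK293T cells: PAX2, PAX8, SIX2, EYA1, LHX1, WT1, SALL1 and OSR1. They are 8 of 19103 protein-coding genes on chromosomes 1 to 22. The data are peak lists from chromatin immunoprecipitation followed by sequencing (ChIP-seq) with antibodies against H3K27ac, a histone acetylation that marks promoters and enhancers in use, and CTCF, a zinc finger protein at the bases of chromatin loops. HEK293T is a single transformed line of human embryonic kidney origin. Cells were untreated (CTRL) or kept for 1 day in 1 mM valproic acid (VPA), which blocks histone deacetylases. Each antibody had 3 CTRL and 3 VPA libraries, and 6 input libraries were not analysed here. A peak was assigned to a gene when it shared at least 1 bp with the gene body or with the 50 kb on either side. By this rule 400 of 506359 peaks fell into the windows of the 8 genes.

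In the embryo these genes act in sequence and in common circuits. OSR1, LHX1, PAX2 and PAX8 mark the intermediate mesoderm and the nephric duct that grows from it. EYA1, SIX2, SALL1 and WT1 are characteristic of the metanephric mesenchyme, the tissue that holds the nephron progenitors, and WT1 is later a gene of podocytes. SIX2 keeps nephron progenitors from differentiating. EYA1 is a transcriptional coactivator without a DNA-binding domain of its own and works with homeodomain partners such as SIX2. SALL1 is a zinc finger repressor that binds a deacetylase-containing complex.

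Sequences at CTCF sites in the windows of these genes are shown as a description and were not used in the CTCF comparisons below. CTCF recognises a long asymmetric motif, of which a core was searched on both strands (CC, any 3 bases, AG, any 2 bases, GGC) within 100 bp of each summit. For each gene, the match in the CTCF region with the highest mean fold enrichment is printed with 10 bases on either side and the core in capitals. Then follow the matches of 2 sites that had a CTCF peak in untreated cells only. The common regions of WT1 and EYA1 held no match, LHX1 and SALL1 had no CTCF region common to all 6 libraries, and coordinates are on hg38.
PAX2, intron, chr10:100743755-100743786, minus strand: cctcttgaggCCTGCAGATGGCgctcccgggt
PAX8, downstream, chr2:113199263-113199294, minus strand: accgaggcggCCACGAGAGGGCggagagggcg
SIX2, downstream, chr2:44955792-44955823, minus strand: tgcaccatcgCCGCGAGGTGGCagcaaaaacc
OSR1, upstream, chr2:19363165-19363196, minus strand: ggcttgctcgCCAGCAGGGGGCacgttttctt
PAX2, intron, CTRL only, chr10:100813197-100813228, plus strand: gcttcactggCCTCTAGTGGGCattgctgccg
PAX8, downstream, CTRL only, chr2:113174583-113174614, plus strand: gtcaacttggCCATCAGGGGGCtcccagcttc

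The core was found at 9 of the 21 CTCF regions of these windows that had a peak in all 6 libraries (42.9%). Among all 27794 such regions the share was 41.3%, and in windows of the same length placed 2 kb away it was 2.85%. The 4 matches at the strongest sites lay 1 to 3 bp from the summit. Those at the CTRL-only sites lay 8 and 24 bp away.

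Promoter sequences are shown for SIX2 and PAX8, one with and one without H3K27ac at the gene start, and for the starts of PAX2, of which one was acetylated. They are from the RefSeq promoter table (GRCh38.p14), which held 4 of the 8 genes (SIX2, PAX8, PAX2 and WT1). SALL1, LHX1, OSR1 and EYA1 were not in it. Each run is the 250 bases before a transcript start, read in the direction of the gene, with CG dinucleotides in capitals.
SIX2, chr2:45009453-45009702, minus strand: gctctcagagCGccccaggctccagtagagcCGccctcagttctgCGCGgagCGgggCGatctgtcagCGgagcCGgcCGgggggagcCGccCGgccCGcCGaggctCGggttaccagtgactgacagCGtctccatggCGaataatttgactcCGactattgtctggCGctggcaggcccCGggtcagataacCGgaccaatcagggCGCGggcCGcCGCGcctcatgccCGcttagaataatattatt
PAX8, chr2:113278922-113279171, minus strand: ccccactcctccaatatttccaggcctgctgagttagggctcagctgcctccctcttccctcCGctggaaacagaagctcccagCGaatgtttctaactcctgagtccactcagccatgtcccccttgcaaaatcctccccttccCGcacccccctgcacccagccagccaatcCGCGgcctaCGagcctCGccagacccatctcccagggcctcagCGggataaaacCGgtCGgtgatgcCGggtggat
PAX2, upstream start, chr10:100735146-100735395, plus strand: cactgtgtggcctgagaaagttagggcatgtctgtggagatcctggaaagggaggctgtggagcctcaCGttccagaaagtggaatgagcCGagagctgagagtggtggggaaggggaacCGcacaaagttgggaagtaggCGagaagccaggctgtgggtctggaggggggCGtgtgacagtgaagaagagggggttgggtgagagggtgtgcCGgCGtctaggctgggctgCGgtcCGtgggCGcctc
PAX2, internal start, chr10:100745332-100745581, plus strand: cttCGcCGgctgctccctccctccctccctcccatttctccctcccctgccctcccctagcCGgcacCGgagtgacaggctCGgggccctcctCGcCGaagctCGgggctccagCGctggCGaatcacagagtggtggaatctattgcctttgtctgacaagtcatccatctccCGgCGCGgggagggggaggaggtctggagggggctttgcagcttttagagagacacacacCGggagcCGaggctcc

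The SIX2 sequence overlapped an H3K27ac region found in all 6 libraries and held 26 CG dinucleotides, a number reached by 19.8% of the 33725 promoters of the table. PAX8 held 11, the median of the table, and overlapped no H3K27ac region. For PAX2, the upstream start held 10 and had no H3K27ac region, whereas the internal start held 15 and lay in a region found in all 6 libraries. WT1, not printed, had 4 starts in the table. The one in a region found in all 6 libraries held 19, and those without an H3K27ac region held 18, 13 and 3. A CG count is a description of the sequence and was not tested against acetylation.

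Depth and quality were compared before the results. Background coverage, which scales with depth and fragment length and was recovered from the lists, was 3.51 to 3.95 fragments in the 12 libraries. Lists held 26299 to 58782 peaks. Read numbers cannot be had from peak lists. Replicate 1 stood apart in every group: it gave the shortest list, and 21.3% to 32.0% of its peaks lay at the genome-wide background, compared with 3.48% to 13.6% in replicates 2 and 3. At the 15 H3K27ac regions of these windows shared by all libraries, the median local background was 35.5 fragments in replicate 1 and 10.4 in the other replicates. A higher local background lowers the fold enrichment of a peak. Results are therefore also given without replicate 1, a choice made after seeing the data.

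In untreated cells H3K27ac was found within 1 kb of the gene start in 3 of 3 libraries for SIX2, LHX1, WT1 and SALL1, and in 1 for OSR1. For all protein-coding genes the share was 59.4%, but by a wider rule than for these 4 of 8 genes. It counted genes with a region within 1 kb that was merged from the peaks of the 6 libraries and had a peak in 3 of 3 CTRL libraries. A merged region can reach further than the peaks of single libraries, so the 2 shares are not strictly comparable. PAX2, PAX8 and EYA1 had no H3K27ac at the 5′ end of the gene. PAX2 and EYA1 were acetylated at transcript starts inside the gene instead. The PAX2 region lay 10.2 kb and the pair of EYA1 regions 230.0 and 234.6 kb downstream of the gene start. A further EYA1 region at a transcript start, 44.5 kb downstream, had a peak in CTRL replicates 2 and 3 (fold enrichment 6.88 and 3.86) and in 0 VPA libraries. At PAX8, the only regions common to all 6 libraries lay 79.8 kb downstream, where H3K27ac overlapped a strong CTCF site, and 46.4 kb upstream beside the start of the non-coding gene LINC02966. Of the OSR1 regions, one lay 10.4 kb downstream at the start of LINC01376 and another 52.6 kb downstream.

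The label of the line was checked against H3K27ac at marker genes. Of 6 nephron progenitor markers (which include SIX2, EYA1, SALL1 and OSR1), 3 had H3K27ac at the gene start in 3 of 3 CTRL libraries (SIX2, SALL1 and ITGA8). The count was 1 of 6 for proximal tubule (LRP2) and 2 of 6 for ureteric and collecting duct (GATA3 and WNT11). Neuronal and adrenal markers gave 3 of 7, namely the neurofilament genes NEFL, NEFM and INA. Markers of blood (0 of 5) and hepatocytes (0 of 5) had none. Single markers of more than one kidney cell type were thus acetylated, and so were neurofilament genes of neurons. No CTRL library had a peak at 5 of the proximal tubule markers and 3 of the ureteric and collecting duct markers. Each printed list was below the 59.4% of all protein-coding genes, a share that rests on the wider rule given above. Only the 5′ end of each gene was scored, so EYA1, acetylated at transcript starts inside the gene, was not counted. These counts do not assign a cell type.

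The first comparison asked whether VPA changed the number of H3K27ac peaks around these genes. Untreated replicates 1, 2 and 3 had 20, 28 and 27 peaks in the 8 windows together, and treated ones had 27, 30 and 31. The ranges overlapped at 27 to 28 peaks, with a mean of 25 ± 4.36 for CTRL against 29.3 ± 2.08 for VPA (SD, n = 3 in either group). Without replicate 1 of both groups the difference was 3.0 peaks. No gene had groups that did not overlap (0 of 8 higher, 0 of 8 lower). Over all 17430 windows with an H3K27ac peak, 23.5% were higher in VPA without overlap and 0.166% lower. The mean was higher in VPA for 4 of 8 genes and for 80.0% of all these windows, and the median difference was 0.5 peaks over the 8 genes and 1.0 over all genes. The direction was not kept with lists of equal length: with every list limited to its strongest 26299 peaks, the 8 windows held a mean of 24.0 peaks in CTRL and 21.3 in VPA. Lists were longer in VPA, and equal lengths also take out a general gain in peaks, so the part of list length was not tested.

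EYA1, the longest gene with a body of 394.6 kb, held 6, 10 and 12 H3K27ac peaks before and 9, 10 and 14 after treatment. PAX8 had 2, 3 and 2 in CTRL against 3, 6 and 2 in VPA, and PAX2 had 1, 3 and 3 against 2, 3 and 5. In these 3 windows the groups overlapped, and the highest value was in a VPA library. SALL1 had 1, 2 and 2 peaks in CTRL against 3, 3 and 2 in VPA, again with overlap, since 2 peaks were found in libraries of both groups. WT1 held 1 peak in each of the 6 libraries. LHX1 means were equal (4.0 peaks each), and SIX2 and OSR1 means were 0.333 peaks lower in VPA. Per 100 kb of window, untreated LHX1 was densest with 3.71 H3K27ac peaks and WT1 sparsest with 0.677, where the median of all genes was 1.96.

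**Figure D1:**
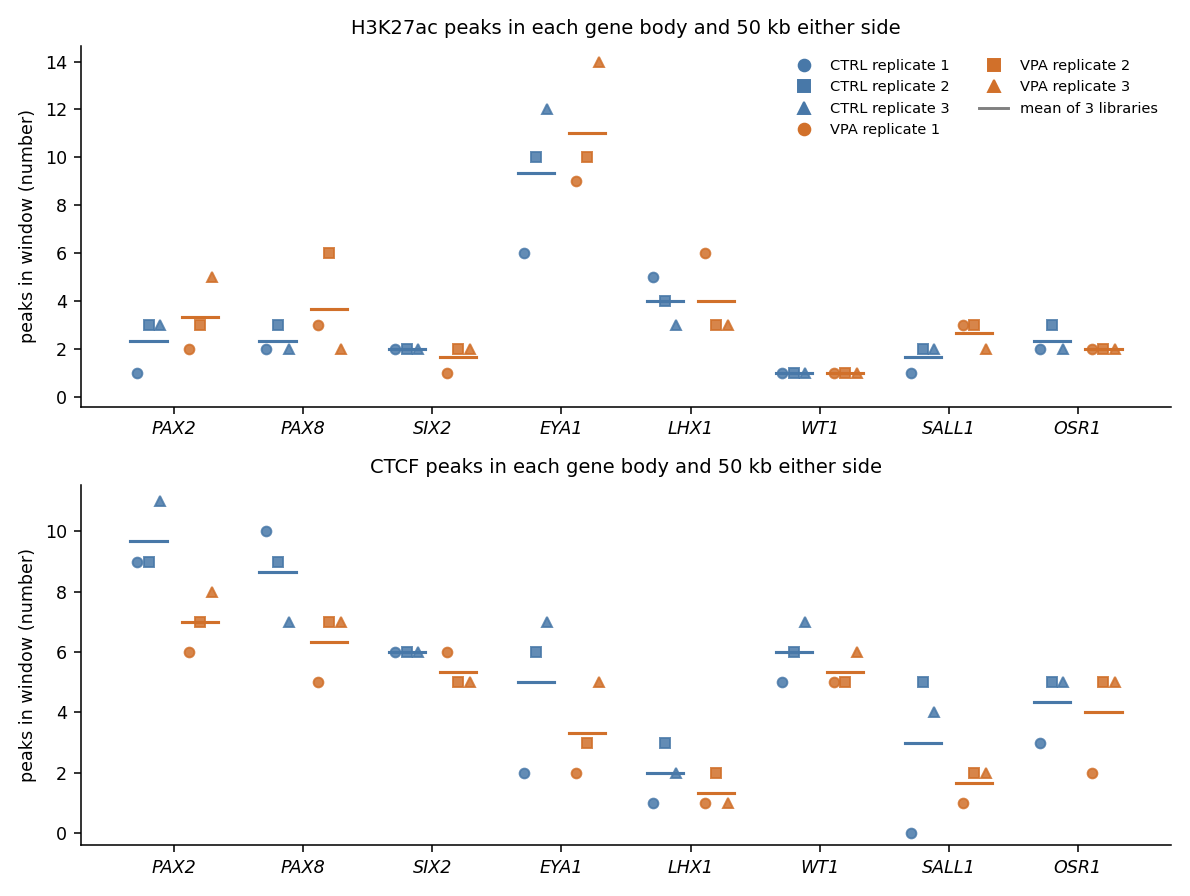
Number of H3K27ac peaks (top) and CTCF peaks (bottom) in the window of each gene, with 1 point per library, the replicate shown by the symbol and a bar at the mean of 3 libraries. H3K27ac groups overlap for all 8 genes, and for CTCF the PAX2 libraries are the only ones without overlap, at 9 to 11 peaks in CTRL and 6 to 8 in VPA.

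Covered length gave the same picture. The H3K27ac peaks of the 8 windows covered 27.8, 43.8 and 40.0 kb in CTRL and 31.0, 51.3 and 44.3 kb in VPA. Replicate 1 was lowest in both groups and the groups overlapped. Again 0 of 8 genes were without overlap, where 40.1% of all windows were higher and 0.115% lower.

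Peaks of the 6 libraries were then merged into regions, which gave 40 H3K27ac regions in the windows. Every library had a peak in 15 of these, where the share of all 55382 regions was 33.2%. A single region was found in 3 of 3 VPA libraries and 0 of 3 CTRL libraries. It lay in an intron of EYA1, 96.6 kb downstream of the gene start. Its fold enrichment in the VPA libraries was 4.35, 2.83 and 4.72, with −log10 q-values of 8.5, 3.44 and 8.23. Its summit pileup, the number of fragments at the summit over the background coverage of the library, was 6.80, 4.81 and 5.73, below every library at the 15 common regions, where the lowest value was 7.89. No region was found in CTRL only. Of all 55382 H3K27ac regions, 4.12% were found in VPA only and 0.139% in CTRL only. The remaining 24 regions were found in part of the libraries, 7 of them in 1 library.

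The height of H3K27ac was compared at these 15 common regions. By ratio of means, the largest differences were decreases at SALL1 and SIX2. At SALL1 the region spanned 9.65 kb around the gene start (chr16:51147728-51157379). The summit of this region lay in an intron, 1.49 kb downstream of the gene start. It was 249 bp from a SALL1 transcript start and 0.076 kb from the start of another gene, ENSG00000285367. The pileup of fragments at its summit was 356, 236 and 232 times the background coverage of the library in CTRL, and 141, 84.0 and 108 times in VPA. All 3 VPA libraries lay below all 3 CTRL libraries, and the mean was 0.404 of that in CTRL (exact permutation test, two-sided p = 0.1, the smallest that 3 against 3 libraries can give). ChIP-seq of a cell population cannot tell fewer acetylated cells from less acetylation per cell. The pileup is also relative to the background coverage of each library, so an absolute change in acetylation was not measured. Its median over all 18407 common regions differed by −0.24 on the log2 scale (VPA minus CTRL).

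The SIX2 region lay at the gene start (chr2:45007234-45011075), over the promoter sequence printed above. Its summit pileup was 150, 101 and 98.7 times background in CTRL and 75.3, 49.4 and 53.5 times in VPA. VPA libraries were again all lower, at 0.509 of the CTRL mean (exact p = 0.1). The third region of this kind lay 230.0 kb inside EYA1 at an internal transcript start, with 90.7, 70.4 and 80.1 times background in CTRL and 46.5, 41.5 and 42.1 times in VPA. There the ratio of means was 0.539 (exact p = 0.1), again without overlap. Over all 18407 H3K27ac regions common to the 6 libraries, 28.2% had lower summit pileups in VPA without overlap, so 3 of 15 is not above the background.

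At LHX1 the values in VPA were the higher ones. The region at its start, which it shares with the divergent transcript LHX1-DT (chr17:36934388-36938236), had a summit pileup of 41.1, 37.2 and 38.2 times background in CTRL and 64.7, 47.8 and 52.2 times in VPA. All VPA libraries were higher, with a ratio of means of 1.41 (exact p = 0.1). A second region, 15.5 kb upstream of LHX1, had 14.3, 11.9 and 12.8 times background in CTRL and 16.9, 14.7 and 18.6 times in VPA, a ratio of 1.28 without overlap. These were the only 2 of 15 regions without overlap in this direction, where the share of all regions was 9.89%. The third LHX1 region belongs to the start of the neighbouring gene AATF and overlapped between groups (ratio 0.805).

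**Figure D2:**
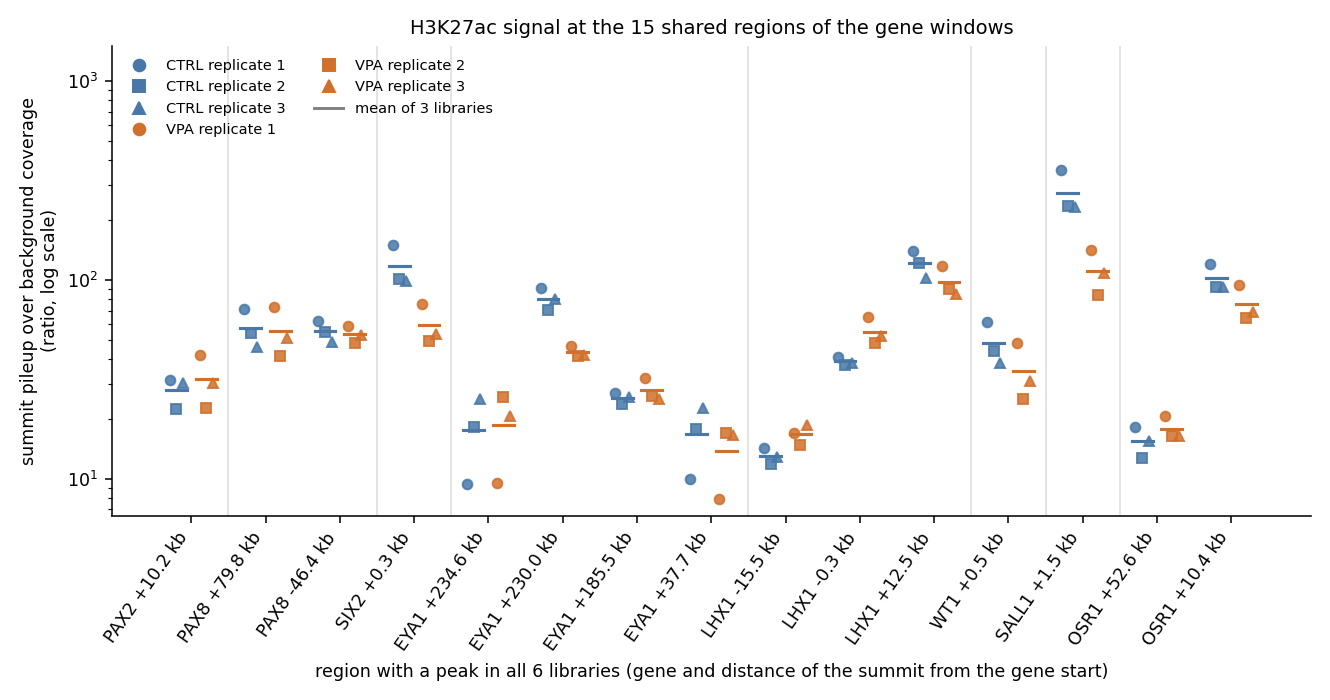
H3K27ac fragments at the summit divided by the background coverage of each library (vertical axis, log scale) at the 15 common regions, named by gene and distance of the summit from the gene start. Points are single libraries and bars are means of 3, and the VPA libraries lie below all CTRL libraries at SIX2, SALL1 and EYA1 (230.0 kb) and above them at both LHX1 regions upstream of the gene.

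The remaining promoter regions overlapped between groups. At PAX2 (chr10:100743416-100746612) the summit pileup was 31.1, 22.4 and 30.2 times background in CTRL and 41.9, 22.5 and 30.3 times in VPA. At WT1 (chr11:32434331-32435949) it was 61.2, 44 and 38.2 times in CTRL and 47.9, 25.1 and 31.1 times in VPA. For each replicate number WT1 was lower in VPA, but the group ranges met (ratio 0.725, exact p = 0.3). The EYA1 region 234.6 kb from the gene start had 9.37, 18.2 and 25.1 times in CTRL and 9.52, 25.8 and 20.8 times in VPA.

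The regions were tested together with all others by limma on the deposited fold enrichment, with the median of each library set to 0. No H3K27ac region of 18407 passed an adjusted p of 0.05, and 1347 had an unadjusted p under 0.05. Among the 15 regions of these windows 0 passed (0% of all regions), and the median difference was 0.09 on the log2 scale compared with −0.05 over all regions. SIX2 and SALL1 were the 2 regions with an unadjusted p under 0.05. SIX2 had a fold enrichment of 12.3, 41.7 and 32.8 in CTRL and 5.36, 16.2 and 16.0 in VPA, a centred log2 difference of −1.12 ± 0.30 (SE, limma adjusted p = 0.672). SALL1 had 34.8, 101 and 71.8 in CTRL and 11.9, 37.3 and 51.2 in VPA, a centred log2 difference of −1.07 ± 0.34 (limma adjusted p = 0.672). Both were lower in VPA for each of the 3 replicate numbers, although the group ranges overlapped, replicate 1 being lowest in both groups. By fold enrichment 0 of the 15 regions were without overlap, where 4.53% of all regions were higher and 1.56% lower. Of all regions 0.424% had a lower value than SIX2 and 0.598% a lower value than SALL1, which were the 2 lowest of the 15 regions.

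With the replicate number as a block, 2 of the 15 regions passed, both lower in VPA: SIX2 (limma adjusted p = 0.00509) and SALL1 (limma adjusted p = 0.0127). This fit called 6.87% of all regions higher and 6.08% lower. Without replicate 1 of both groups 1 region passed, SIX2 (limma adjusted p = 0.0199), and SALL1 did not (adjusted p = 0.0743), where 6.43% of all regions were called, 3.8% higher and 2.62% lower. The decile of strongest regions was lower in VPA in general: in the decile of all regions with the highest mean fold enrichment, which holds SALL1, the median log2 difference was −0.46, and 2.39% of that decile lay below SALL1. In the decile that holds SIX2, 0.326% lay below it and the median was −0.15.

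With the recovered summit pileup in place of the fold enrichment, limma called 7 of the 15 regions, where 11.7% of all regions were called higher and 20.7% lower. SALL1 (log2 difference −1.07, adjusted p = 0.00657), SIX2 (−0.73, adjusted p = 0.00754) and the EYA1 region at 230.0 kb (−0.65, adjusted p = 0.0103) were lower. Both LHX1 regions (0.73 at the start and 0.60 upstream), the EYA1 region at 185.5 kb (0.36) and the OSR1 region at 52.6 kb (0.46) were higher, with adjusted p of 0.00677 to 0.0384. These values are relative to the median of all regions, which was 0.24 lower in VPA on the log2 scale. Without that centring the same 3 regions were called lower and 0 higher, where 2262 of all 18407 regions were called lower and 659 higher. In that fit 72.0% of all regions had a negative difference, called or not. SALL1 and SIX2 were thus lower under each of these measures. The same 2 LHX1 regions were also higher by centred fold enrichment (0.46 at each), where neither was called. Calls depended on the setting in both directions. SALL1 and SIX2 were not called by fold enrichment without the block, and higher H3K27ac was called only with the centred pileup.

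**Figure D3:**
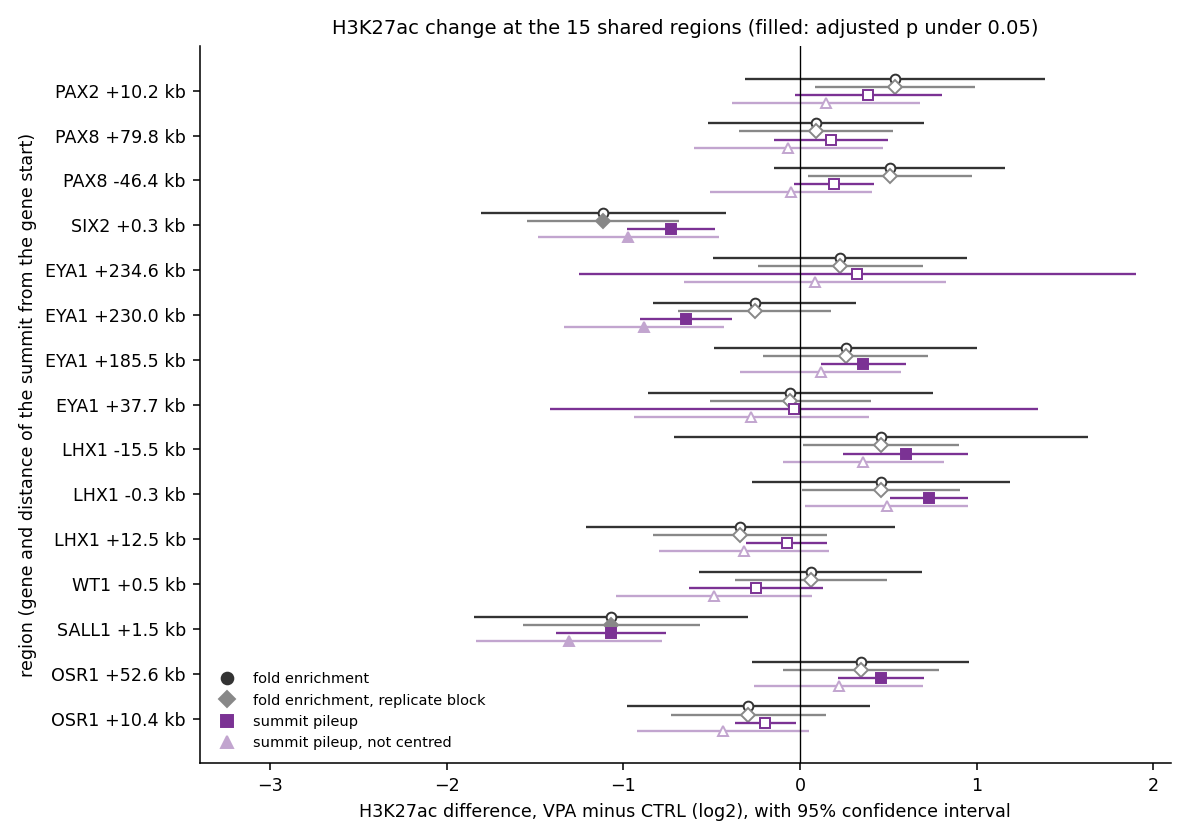
Difference in H3K27ac between VPA and CTRL (log2, with 95% confidence interval from limma) at the 15 common regions, for the fold enrichment without and with the replicate block and for the summit pileup with and without centring. Filled symbols mark an adjusted p under 0.05: SIX2 and SALL1 are filled on the left for all measures but the fold enrichment without the block, EYA1 (230.0 kb) for both pileups, and on the right symbols are filled only for the centred summit pileup.

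The next comparison asked the same of CTCF. The 8 windows together had 36, 49 and 49 CTCF peaks in CTRL against 28, 36 and 39 in VPA, means of 44.7 ± 7.51 and 34.3 ± 5.69 (SD, n = 3 in either group), a change of −23.1%. The mean was lower in VPA for 8 of 8 genes and for 53.7% of all windows with a CTCF peak, and the median difference was −1.0 peaks compared with −0.333 over all genes. The sums overlapped between groups, since CTRL replicate 1 held 36 peaks. Within each replicate number the VPA sum was lower, and without replicate 1 of both groups the difference was −11.5 peaks. With every CTCF list limited to its strongest 36469 peaks, the difference shrank to −2 peaks.

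PAX2 was the 1 of 8 genes whose groups did not overlap, with 9, 9 and 11 CTCF peaks before and 6, 7 and 8 after treatment (difference −2.67, exact p = 0.1). Of all 18814 windows with a CTCF peak, 1.14% were lower without overlap and 0.356% higher. With the replicate block the exact p was 0.25, the smallest that 3 pairs can give, and with equal list lengths the difference was −1 peak. PAX8 had 10, 9 and 7 peaks in CTRL against 5, 7 and 7 in VPA. SALL1 had 0, 5 and 4 against 1, 2 and 2. Both overlapped, as did EYA1 with 2, 6 and 7 against 2, 3 and 5. By covered length 0 of 8 genes were without overlap, where 1.27% of all windows were lower and 0.351% higher.

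Of 59 CTCF regions in the windows, 21 were common to all 6 libraries, where the share of all regions was 39.7%. A further 3 were found in 3 of 3 CTRL and 0 of 3 VPA libraries, and 0 the reverse. Of all 69985 CTCF regions 0.326% were found in CTRL only and 0.186% in VPA only. Of these 3, a pair lay in introns of PAX2, 24.2 and 77.8 kb downstream of the gene start. The third lay outside PAX8, 104 kb downstream of its start and 0.785 kb from the start of ENSG00000234174. The fold enrichment in CTRL was 2.84, 3.05 and 4.78 at the first PAX2 site, 6.78, 6.78 and 6.0 at the second and 3.94, 4.97 and 5.47 at the PAX8 site. A motif core was found at the second PAX2 site and at the PAX8 site, as printed above, and in 17.1% of all 228 CTRL-only regions. Lists hold no value where no peak was called, so the signal of the VPA libraries at these sites is unknown.

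**Figure D4:**
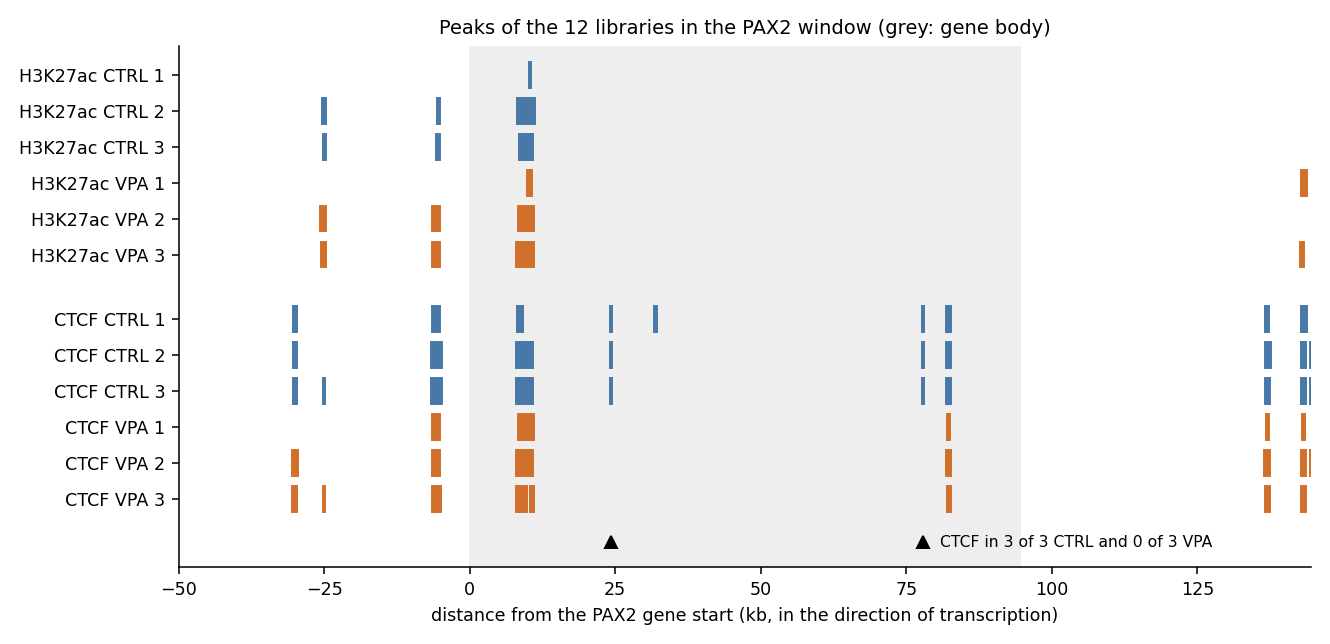
Peaks of the 12 libraries (rows) by distance from the PAX2 gene start in kb (horizontal axis), with CTRL in blue, VPA in orange and the gene body in grey. The H3K27ac region at 10.2 kb and the CTCF regions beside it are found in every library, and triangles mark the CTCF sites at 24.2 and 77.8 kb that are found in CTRL libraries only.

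At the 21 CTCF regions common to all 6 libraries no change passed the test. Limma called 0 of 27794 regions, with 83 at an unadjusted p under 0.05, and 0 of the 21, of which 0 had an unadjusted p under 0.05. The median log2 difference was 0.13 over the 21 regions and 0.10 over all, and 9 of the 21 were lower. The sign of the members' median rested on single libraries. Without VPA replicate 1, 14 of the 21 were lower and the medians were −0.20 and −0.18, and without CTRL replicate 3, 11 were lower and the medians were −0.01 and 0.03. The smallest p belonged to a site 74.8 kb downstream of the PAX8 start (chr2:113203636-113204582). Its fold enrichment was 79.2, 61.1 and 70.2 in CTRL and 8.79, 50.6 and 54.5 in VPA, lower without overlap (centred log2 difference −1.15 ± 0.65, SE, limma adjusted p = 1.00). Leaving out single libraries moved this difference from −1.53 (without CTRL replicate 2) to −0.55 (without CTRL replicate 1), with −0.89 without VPA replicate 1, and it was −0.28 without replicate 1 of both groups. In all, 1 of the 21 regions was lower by fold enrichment without overlap and 2 were higher, where the shares of all regions were 2.24% and 3.87%.

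Levels at the strongest of these common sites were as follows. The printed SIX2 site had a summit pileup of 595, 276 and 268 times background in CTRL and 954, 325 and 256 times in VPA. The printed PAX8 site had 567, 253 and 258 times in CTRL and 870, 261 and 234 times in VPA. In these examples replicate 1 was far above replicates 2 and 3, and the groups overlapped. The PAX2 region that holds the printed site had 212, 189 and 203 times background in CTRL and 38.8, 228 and 185 times in VPA. In VPA replicate 1 the 38.8 belongs to a peak at 10.214 to 10.995 kb from the gene start, away from the printed site. The peak of this library over the printed site, at 8.229 to 9.838 kb, had a fold enrichment of 2.65. The fold enrichments used for the other libraries were 25.98 to 101. VPA replicate 1 was thus the low library by fold enrichment, while its pileup at the printed site was not compared. A single region was lower by summit pileup without overlap, in an intron of PAX2 at 82.3 kb (170, 95.6 and 104 times in CTRL and 76.8, 95.2 and 93.1 times in VPA), where 1.85% of all regions were, and 0 were higher (0.288% of all regions).

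CTCF also lay at promoters of these genes. The WT1 region at 0.888 kb (chr11:32434298-32435932) had a summit pileup of 170, 74.5 and 77.6 times background in CTRL and 229, 71.8 and 64.1 times in VPA. The EYA1 region at the internal start had 78.8, 30.8 and 31.5 times in CTRL and 88.2, 28.6 and 27 times in VPA. Both overlapped between groups, with replicate 1 the highest library in each. At SIX2 a weak CTCF peak at the start was found in 2 CTRL libraries and 0 VPA libraries, and at SALL1 in 1 and 2.

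**Figure D5:**
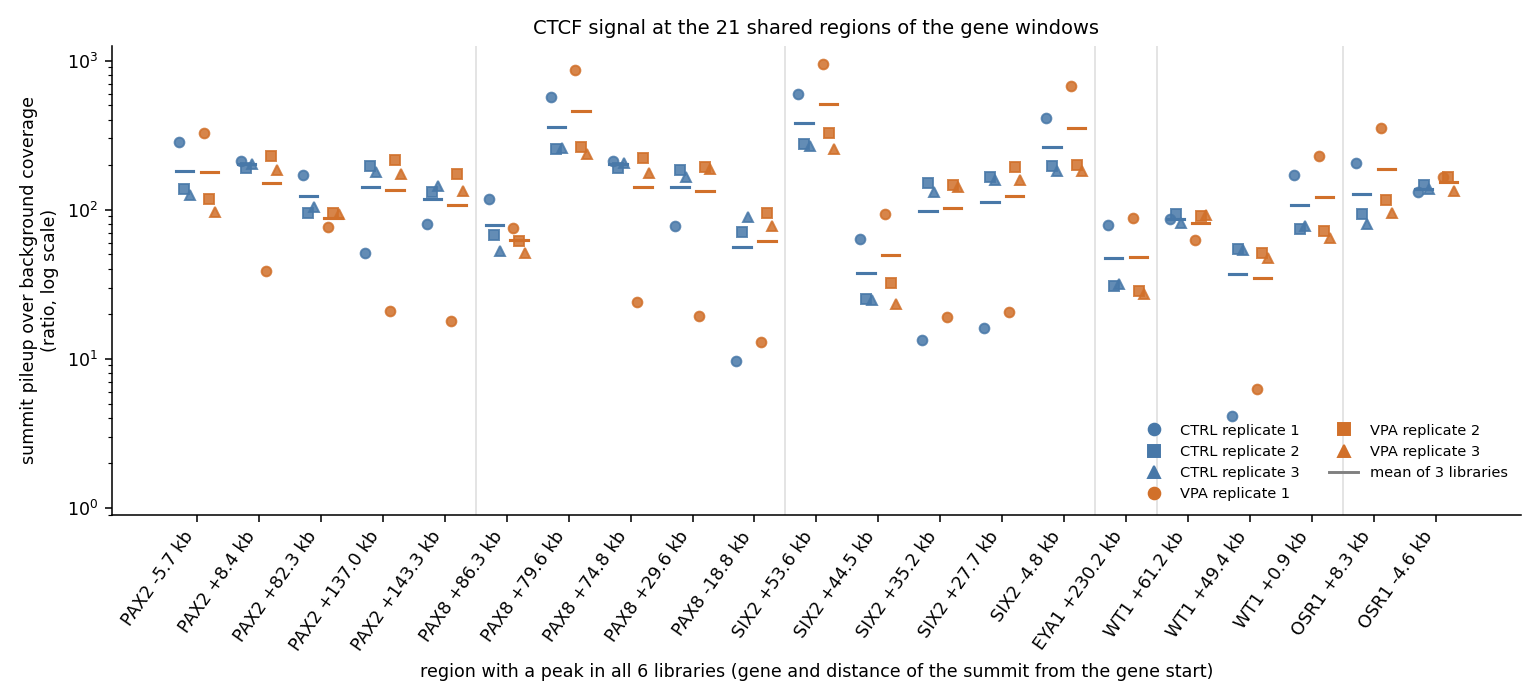
CTCF fragments at the summit divided by the background coverage of each library (vertical axis, log scale) at the 21 regions common to all 6 libraries, named by gene and distance of the summit from the gene start, with 1 point per library and bars at means of 3. Circles (replicate 1) lie far above or far below squares and triangles (replicates 2 and 3) at most regions, for example at 954 against 325 and 256 times background at SIX2 (53.6 kb) in VPA, and 6.25 against 51.1 and 47.1 times at WT1 (49.4 kb) in VPA.

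Other genes of kidney development were compared by the same counts. Of 26 other kidney transcription factor genes, 2 had more H3K27ac peaks in VPA without overlap and 0 fewer. DACH1, whose product works with SIX2 and EYA1 relatives, had 16, 13 and 21 peaks in CTRL against 22, 31 and 32 in VPA. GATA3, a gene of the nephric duct, had 3, 3 and 2 against 4, 5 and 5. Of the 26 genes 23 had an H3K27ac peak, and among all windows with a peak the share higher without overlap was 23.5%, as given above.

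Among 17 genes of kidney signalling, 2 were higher and 0 lower. WNT11, a ligand of the ureteric tip, had 3, 4 and 4 peaks in CTRL against 5, 6 and 6 in VPA. GDF11, a ligand of the TGF-β family, had 4, 5 and 6 against 9, 7 and 8. GDNF and RET, the ligand and receptor that drive outgrowth of the ureteric bud, overlapped, with means 0.333 peaks lower and 0.333 peaks higher in VPA. Of 25 paralogues of the 8 genes, 3 were higher and 0 lower: SALL4 (5, 7 and 7 in CTRL, 11, 10 and 11 in VPA), SALL2 (4 in each CTRL library, 7, 6 and 5 in VPA) and LHX5 (1 in each CTRL library, 2 in each VPA library). Of all windows with an H3K27ac peak 23.5% were higher without overlap and 0.166% lower, so the counts of these lists are not above the background. For CTCF, 0 genes of the 3 lists were without overlap in either direction, where 1.14% of all windows with a peak were lower and 0.356% higher.

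The genes whose windows were most like those of the 8 genes were found from the covered lengths in the 12 libraries, as the smallest Euclidean distance. They were LRIG3 for LHX1 (1.06 kb), CRTAM for OSR1 (1.02 kb), ARG1 for WT1 (1.08 kb), BANF2 for SIX2 (1.40 kb), NPC2 for PAX8 (2.06 kb), MYL3 for PAX2 (2.24 kb), STYK1 for SALL1 (2.55 kb) and SOX5 for EYA1 (2.74 kb).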

How the data were processed

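The ChIP-seq peak lists of 12 libraries were analysed, in 4 groups of 3 taken from the sample labels, which do not say whether replicates were separate cultures, so p-values measure the spread between these libraries. Chromatin fragments were 200 to 600 bp. The authors aligned reads to hg38 with Bowtie2 and called peaks per library with MACS3 (3.0.0a7 in the submitters' processing notes) at a q-value of 0.05. The deposited fold enrichment is the ratio of fragments at the summit to those of the surrounding background, each plus 1, and the deposited −log10 p-value and −log10 q-value come from the authors' peak caller. The deposited score is a whole number, 10 times the −log10 q-value by the authors' peak caller, and was not used. The read-based DiffBind test named in the submitters' processing notes needs reads and was not run. The 8 genes and the gene lists were chosen with earlier results of these data known.

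Genes and transcript starts came from GENCODE release 44. Windows were compared by exact permutation tests over the 20 assignments of 6 libraries (two-sided), which cannot go below p = 0.1. Peaks of an antibody sharing at least 1 bp were merged into regions. Regions with a peak in all 6 libraries were tested with limma 3.58.1 (R 4.3.3, Benjamini-Hochberg over all such regions) on log2 of the fold enrichment, centred per library. Each library gave the value of its peak with the highest fold enrichment in the region. Summit pileups were recovered by solving the fold and the p-value for the Poisson count that gives both, and were whole within 0.05 in 99.9975% to 100% of the peaks of a library. Intervals were handled with Python 3.11.15, numpy 2.4.6, pandas 2.3.3, scipy 1.17.1, pysam 0.24.0 and samtools 1.23.1, and plots with matplotlib 3.10.9.

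Same-numbered H3K27ac libraries deviated together (r = 0.865, 0.585 and 0.591 for replicates 1, 2 and 3 over 18407 regions), so the replicate number was also used as a block. This pairing comes from the data, and replicates 2 and 3 also correlated with each other across groups (0.607 and 0.554). For CTCF the values were 0.340, −0.05 and 0.477. Regions were named if they lay at an own promoter (within 1 kb of a transcript start), were found in 1 treatment only or had the smallest p, and genes of the lists if their groups did not overlap. Other regions and the genes GDNF and RET were named after their values were seen. The result of 1 marker list is not reported here.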

Additional observations from a re-analysis of the deposited data

How the results depend on the processing

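With equal list lengths, the difference in the sum over the 8 windows moved to −2.67 H3K27ac peaks and to −2 CTCF peaks. Without each library in turn, the sums differed by 1.83 to 5.83 H3K27ac peaks, 0.254 to 10.6 kb of H3K27ac, −14.7 to −7.17 CTCF peaks and −8.90 to −1.43 kb of CTCF, and 0 member regions of either antibody were called. The number of H3K27ac regions called, 0 of 15, became 2 with the replicate block, 2 with the block and no centring, 7 with the summit pileup, 8 with the summit pileup and the block, 3 with the summit pileup and no centring, and 1 without replicate 1 of both groups. Of all 18407 common regions, 12.9% were called with the block and 32.4% with the summit pileup. With both the share was 50.6%, and without replicate 1 of both groups it was 6.43%. The block without centring called 946 of all regions higher and 1695 lower, and the summit pileup without centring 659 higher and 2262 lower. The combined alternatives and the one without replicate 1 of both groups were chosen after seeing the data. For CTCF the count was 0 under every alternative, the replicate block included, where numbers did not pair the libraries. The block leaves the differences in sums as they are (4.33 H3K27ac and −10.3 CTCF peaks).

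These log2 differences changed direction. With the uncentred pileup, H3K27ac became −0.066 at PAX8 (79.8 kb), −0.05 at PAX8 (−46.4 kb) and −0.488 at WT1, and CTCF −0.055 at EYA1. WT1 H3K27ac was −0.026 uncentred, with or without the replicate block, and −0.248 with the pileup, again with or without it. Without replicate 1 of both groups, EYA1 H3K27ac (37.7 kb) became 0.144 and WT1 CTCF −0.083. Leaving out single libraries gave −0.004 to 0.234 at PAX8 (79.8 kb), −0.28 to 0.253 at EYA1 (37.7 kb), −0.658 to 0.03 at LHX1 (12.5 kb) and −0.058 to 0.184 at WT1 for H3K27ac, and −0.333 to 0.908 at EYA1 and −0.224 to 0.642 at WT1 for CTCF. The cause was not tested. Peak lists hold no value below the threshold of the peak caller, 3 libraries per group cannot reach an exact p of 0.05, and the DiffBind analysis was not run.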

Other observations

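In CTCF replicate 1, many sites of these genes were far above or far below replicates 2 and 3, and others, such as OSR1 at −4.56 kb (0.929 times in CTRL and 1.10 times in VPA), were close to them. Of the 21 CTCF regions common to all libraries, 7 overlapped an H3K27ac region. Relative to the mean of replicates 2 and 3, the summit pileup of replicate 1 at these 7 had a median of 2.19 in CTRL and 3.18 in VPA. At the 14 regions away from H3K27ac the median was 0.959 in CTRL and 0.420 in VPA. Over all common regions the same ratio had medians of 1.90 in CTRL and 2.15 in VPA at 12168 regions with H3K27ac, and of 1.05 and 0.335 at 15626 without. Single sites spread further: at WT1, the promoter region was at 2.23 in CTRL and 3.37 in VPA, and the site 49.4 kb downstream at 0.0764 and 0.127. At SIX2, the sites at −4.80 and 53.6 kb were at 3.54 and 3.29 in VPA, and those at 27.7 and 35.2 kb at 0.118 and 0.132. Its part in the CTCF results was not tested beyond the values without replicate 1.

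The density of CTCF peaks differed between the genes. Untreated SIX2 held 5.75 CTCF peaks per 100 kb, above 82.2% of all genes, and PAX8 held 5.32, above 78.4%. EYA1 held 1.01 per 100 kb, above 11.4% of all genes, and LHX1 held 1.86, above 26.5%.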
